A study of Mus musculus with 6 samples.

Results

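The mitochondrial solute carriers, the Slc25a gene family, were examined in 6 mouse bone marrow libraries. The family comprised 46 genes of 49315 in the count table, taken as every protein-coding gene whose symbol starts with Slc25a. Slc25a37, mitoferrin-1, was left out by that rule. The libraries came from marrow cells of mice on the HFSC diet (as the labels abbreviate it) after hindlimb ischemia, in which the blood supply of a leg is blocked. There were 3 libraries from miR-181a2b2flox/flox mice (labelled WT and flox, replicates 1, 3 and 4). The other 3 were from miR-181a2b2-/- mice that lack the locus of miR-181a-2 and miR-181b-2 (KO, replicates 2, 3 and 4). All 6 shared the diet and the surgery, and no group without them was analysed here. The labels used here give no age, sex, Cre driver or number of animals, and they do not state whether replicates were different mice. The p-values therefore measure only the spread between these libraries.

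These carriers are nuclear-encoded proteins that sit, with few exceptions, in the inner mitochondrial membrane. They are built from repeated pairs of membrane-spanning helices and exchange nucleotides, phosphate, metabolites, amino acids and cofactors between the cytosol and the matrix. In marrow they are best known from developing red cells, which make haem partly inside mitochondria and need glycine, iron and glutathione there. In bulk marrow, fewer cells of a type and less RNA per cell cannot be told apart.

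The deleted locus encodes microRNAs that bind messenger RNAs through their seed, bases 2 to 8, so the seeds and their matches in the carriers are shown first. The 2 mature sequences (RefSeq, GRCm38.p6, chromosome 2, plus strand, 38852741 to 38852763 for miR-181a-5p and 38853845 to 38853868 for miR-181b-5p) are given with the seed in capitals.
miR-181a-5p: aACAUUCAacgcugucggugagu
miR-181b-5p: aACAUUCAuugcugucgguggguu
Both carry the same seed.

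Matches were sought in the longest annotated 3′ UTR of each gene (GENCODE M21, GRCm38) on the transcribed strand. They were counted as an 8mer (TGAATGTA), a 7mer matching bases 2 to 8 (TGAATGT) or a 7mer matching bases 2 to 7 followed by A (GAATGTA), each stretch counted once as its longest type. Of the 46 carriers 45 had an annotated 3′ UTR and 7 held a match, with 13 matches in all and 2 of them 8mers. The matches of 6 carriers that were measured in marrow are shown in a window of 30 bases, the match in capitals, with 1 window per gene.
Slc25a12, 8mer: gcagccatgttTGAATGTAtccagtttcag
Slc25a36, 8mer: gctaacctttcTGAATGTAccccagtggat
Slc25a25, 7mer: acctcattctgTGAATGTgccaacactaag
Slc25a53, 7mer: cccctcaaaagTGAATGTgacattagtttt
Slc25a32, 7mer: aaataatttgaTGAATGTtctttttttctg
Slc25a51, 7mer followed by A: cttctatgtcaGAATGTAattaatagtctt
These matches lie on the minus strand of GRCm38, at chr2:71274691-71274698 (Slc25a12), chr9:97075780-97075787 (Slc25a36), chr2:32416068-32416074 (Slc25a25), chrX:136981519-136981525 (Slc25a53), chr15:39095655-39095661 (Slc25a32) and chr4:45396678-45396684 (Slc25a51). The seventh gene, Slc25a48, had 0 counts in every library. A match is a description of letters and not a shown target site.

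Across the 6 libraries total counts lay between 33861440 and 40359093, so that 3 counts, the most that a count of 0 allows, correspond to 0.0743 to 0.0886 CPM, the usual unit of read counts scaled to library size. Such limits cover counting error only. The labels name bone marrow as the source, while their extraction text names white adipose tissue. Neutrophil markers summed to between 51804 and 65861 CPM in WT and between 77433 and 93660 CPM in KO, and adipocyte markers to between 51.3 and 86.7 CPM. KO replicate 4 stood apart, at 36.6 on the first principal component, against 10.3 and 12.1 for the other KO libraries and -17.3, -18.9 and -22.8 for WT. Xist, transcribed in female cells, exceeded 1 CPM in WT replicates 3 and 4 and in KO replicate 2, so the groups differ in this mix.

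Of the 46 carriers 40 had enough counts to be tested. Levels between genes are given per length, as CPM per kilobase of annotated exon (CPM per kb), with the SD over all 6 libraries. The tested carriers spanned 556-fold in mean level, with 13 above 10 CPM per kb, 20 between 1 and 10, and 7 below 1. Slc25a5, the main ADP/ATP exchanger of proliferating cells, was highest of these at 208 ± 24.5 CPM per kb. It made up 32.5% of the summed level of the 46 carriers, which leave out Slc25a37 and Ucp2. Slc25a3, which imports phosphate for ATP synthesis, followed at 55.8 ± 3.23 CPM per kb, Slc25a39, which imports glutathione, at 51.3 ± 12.6 and Slc25a51, which imports NAD, at 43.6 ± 8.77. Slc25a24, an ATP-magnesium/phosphate carrier, lay at 40.9 ± 3.33 and Slc25a11, the oxoglutarate/malate carrier, at 40.6 ± 5.55 CPM per kb. These 6 genes together gave 68.8% of the summed level.

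With annotated exon length, the library ranges separate Slc25a5, at 183 to 251 CPM per kb, from every other carrier among the 46. Below it the order is not resolved, since Slc25a3 (53.2 to 62.0), Slc25a39 (38.9 to 70.0), Slc25a51 (33.7 to 57.0), Slc25a24 (37.1 to 45.7) and Slc25a11 (34.8 to 49.9 CPM per kb) each overlapped the next in rank. Slc25a37 (722 to 1216 CPM) and Ucp2 (1011 to 1338 CPM) are outside this ranking, and their level per kb was not computed. The exon length used matters for Slc25a3, whose level was 231 CPM per kb with the longest coding transcript as length, against 276 for Slc25a5. With that length the library ranges of Slc25a3 and Slc25a5 overlap, so the separation of Slc25a5 depends on the length used. The first 4 ranks were the same with that length, whereas Slc25a38, the glycine carrier of haem synthesis, moved from rank 7 to 6 and Slc25a24 from 5 to 7. Slc25a5 and Slc25a4 are close paralogs, Slc25a5 has an annotated pseudogene, and how reads with several matches were counted is not stated in the labels, so their levels are uncertain.

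**Figure D1:**
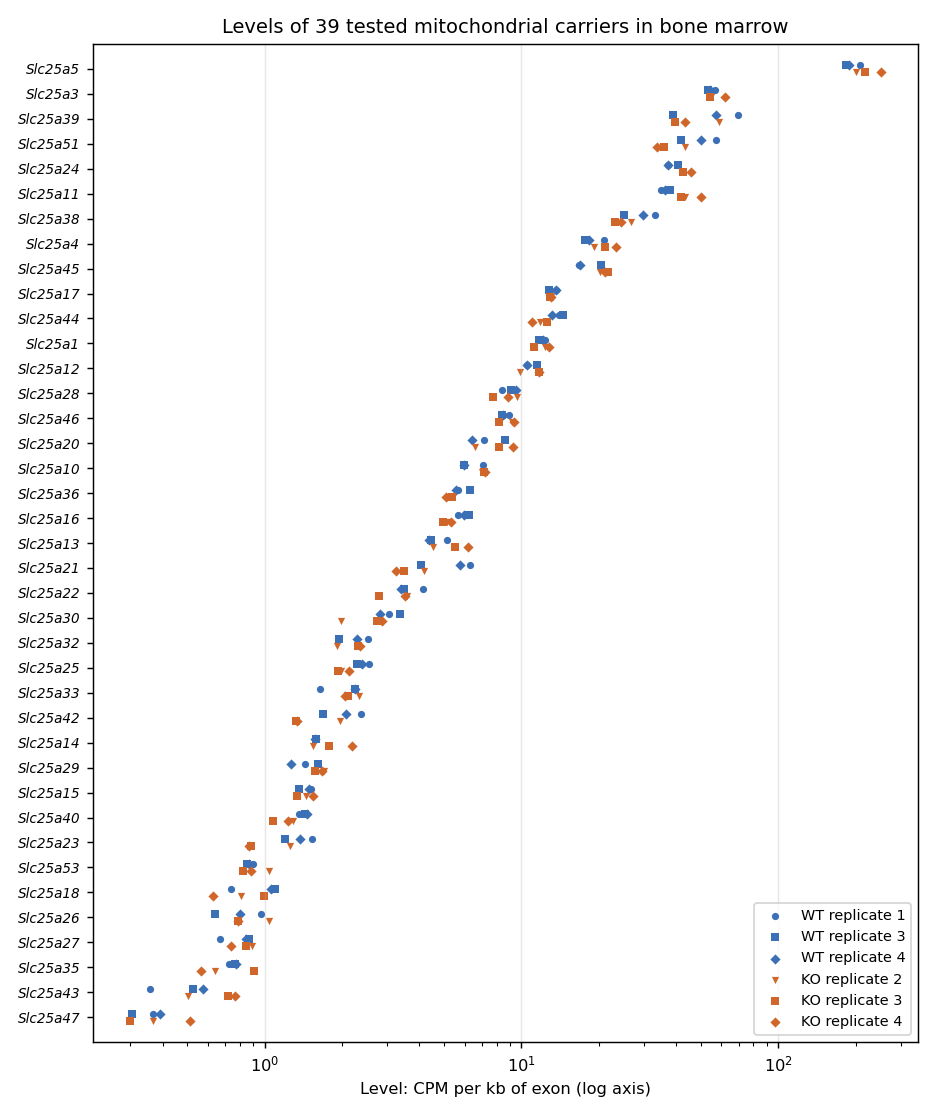
Level of 39 of the 40 tested carriers in each library, in CPM per kb of exon on a log axis, with WT in blue and KO in orange and the marker shape giving the replicate. Slc25a5 lies above all others at 183 to 251 CPM per kb, and WT and KO points of most genes are interleaved.

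The 6 carriers that were not tested were near the limit of detection. Slc25a2, an ornithine carrier, had 51 counts over all 6 libraries, Slc25a54 19, Slc25a34 10, Slc25a31, the germ cell ADP/ATP exchanger, 9, Slc25a41 2 and Slc25a48 0.

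KO and WT marrow were compared in a single model over all 16956 genes tested (edgeR quasi-likelihood test, Benjamini-Hochberg adjusted, threshold 0.05). None of the 40 carriers passed, with 0 higher and 0 lower in KO, against 2.46% of all genes tested (0.938% higher and 1.52% lower). The smallest adjusted p was 0.0957, for Slc25a11. At an unadjusted p under 0.05 there were 8 carriers, or 20.0%, against 23.9% of all genes, 2 of them higher and 6 lower. DESeq2 called Slc25a11 higher and Slc25a21 and Slc25a51 lower, or 7.89% of 38 carriers with an adjusted p, against 12.6% of all genes with one. Limma called 0 carriers, against 4.64% of all genes tested. The median log2 fold change (KO minus WT) of the carriers was 0.02, with 21 positive and 19 negative, against -0.01 over all genes tested. Single values ran from -0.56 for Slc25a21 to 0.44 for Slc25a43. A p above the threshold does not show equal levels, but the 95% interval lay within 0.5 either way on the log2 scale for 23 carriers and within 1 for 39, the exception being Slc25a43, a carrier of unassigned substrate.

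WT and KO libraries did not overlap in CPM for 7 carriers, or 17.5%, against 29.1% of all genes tested. KO lay above WT for 2 (5.0%, against 14.4% of genes), Slc25a11 and Slc25a24. KO lay below WT for 5 (12.5%, against 14.7%), namely Slc25a16, Slc25a25, Slc25a36, Slc25a40 and Slc25a44. For KO above WT the share was smaller than over all genes, and for KO below WT it was near that of all genes. The family summed to between 1937 and 2177 CPM in WT and between 1948 and 2108 CPM in KO, ranges that overlap.

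**Figure D2:**
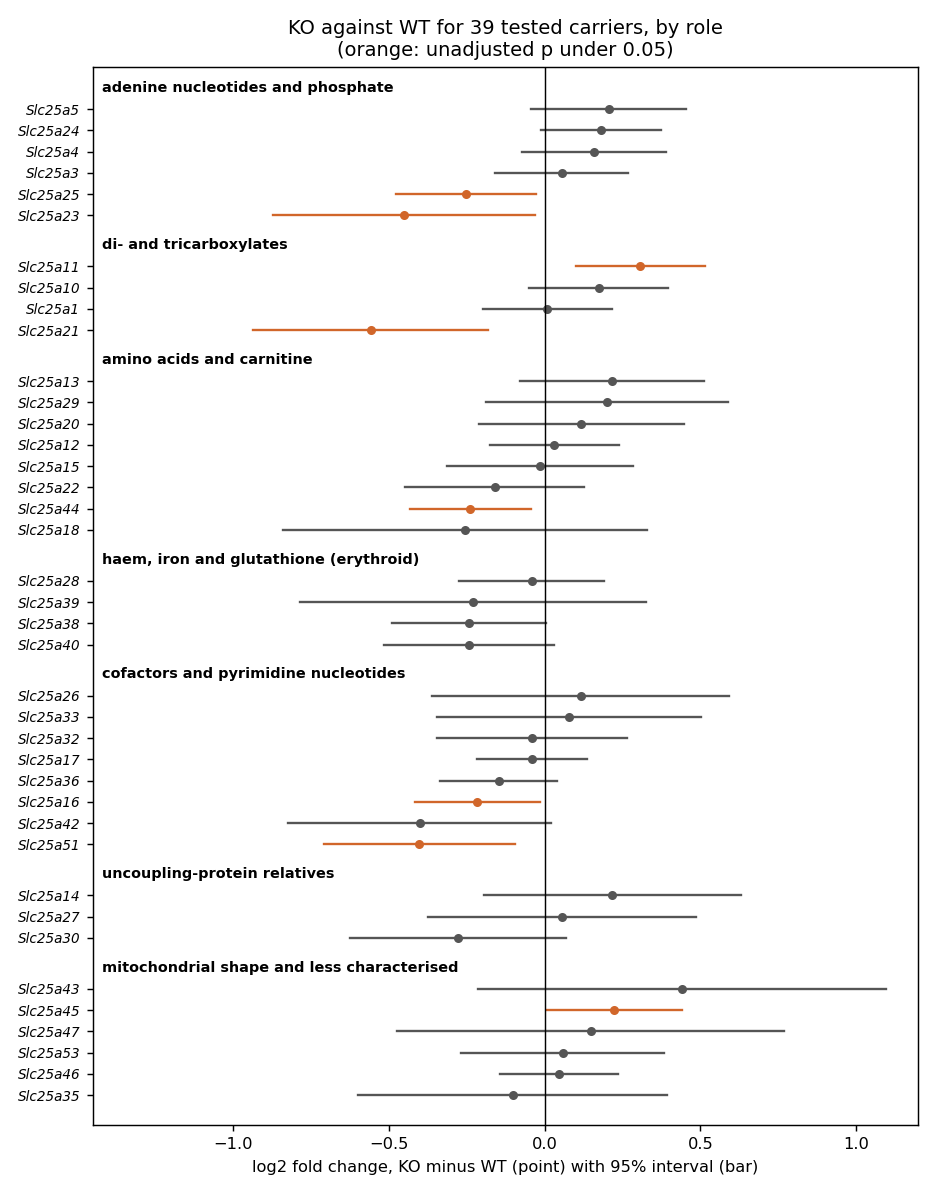
Log2 fold change, KO minus WT, of 39 of the 40 tested carriers (point) with its 95% interval (bar), grouped by role, with unadjusted p under 0.05 in orange. Most intervals cover 0, and values run from -0.56 (Slc25a21) to 0.44 (Slc25a43).

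Carriers of haem, iron and glutathione, the group most tied to red cell formation, had 0 calls, values below 0 in all 4 members and a median log2 fold change of -0.24. The sign of Slc25a28 turned with the Xist covariate (0.0180) and without KO replicate 3 (0.0494). Slc25a39 (ENSMUSG00000018677, GRCm38 chromosome 11, 102402985 to 102407946) had 193, 107 and 158 CPM in WT replicates 1, 3 and 4 and 162, 110 and 119 CPM in KO replicates 2, 3 and 4. WT replicate 3 was below the lowest KO library, and the level differed 1.80-fold within WT and 1.48-fold within KO. Its log2 fold change of -0.23 ± 0.23 (SE, edgeR adjusted p = 0.594) was within that spread. Leaving out WT replicate 1 brought it to -0.03 and leaving out WT replicate 3 to -0.43, while it was -0.41 when KO replicate 2 was dropped and -0.11 when KO replicate 3 was. Among the 13 carriers above 10 CPM per kb, Slc25a39 varied most over the libraries, with a coefficient of variation of 24.5%. Slc25a17, a peroxisomal carrier of coenzyme A and other cofactors, varied least at 2.63%.

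Slc25a38 (ENSMUSG00000032519, chromosome 9, 120110374 to 120124504) brings in glycine, the substrate from which haem synthesis starts. It had 90.8, 69.1 and 81.6 CPM in WT and 73.6, 63.5 and 67.0 CPM in KO. The groups overlapped through WT replicate 3, and the log2 fold change was -0.24 ± 0.11 (SE, edgeR adjusted p = 0.219), with a 95% interval from -0.49 to 0.01. It was -0.15 without WT replicate 1.

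Slc25a40, the paralog of Slc25a39 with the same substrate, was far less abundant at 1.31 ± 0.143 CPM per kb. It had 11.4, 12.03 and 12.2 CPM in WT and 10.8, 8.999 and 10.4 CPM in KO. These did not overlap, yet the difference of -0.24 ± 0.12 did not pass (edgeR adjusted p = 0.257).

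Slc25a28, mitoferrin-2, the iron importer found outside as well as inside the red cell lineage, had 31.4, 34.2 and 35.7 CPM in WT and 36.0, 29.0 and 33.4 CPM in KO. Highest and lowest libraries were both KO, and the log2 fold change was -0.04 ± 0.10 (SE).

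Erythroid markers are given beside this group. The 23 measured markers, among them globins and Slc4a1, all had negative values, with a median of -0.40, and 4 fell, among them Sptb, Ermap and Kel. Their sum was 36826, 16942 and 27694 CPM in WT replicates 1, 3 and 4 and 27035, 16018 and 18760 CPM in KO replicates 2, 3 and 4. WT replicate 1, WT replicate 4 and KO replicate 2 were thus highest in the sum. The same 3 libraries were highest for Slc25a39 and Slc25a38, but not for Slc25a40 or Slc25a28. They were also highest for carriers outside this group, among them Slc25a51, Slc25a21, Slc25a42, Slc25a23 and Slc25a26, so the order is not particular to it. The sum is weighted toward globins, with Hbb-bs alone at 13982 CPM in WT replicate 1. For Hbb-bs, WT replicate 3 was below KO replicate 2 (5105 against 10760 CPM). For Slc4a1 it was above (2103 against 1780 CPM), so the order of the sum is not that of every marker. The part of the marker difference between KO and WT in the carriers' values was not tested. The 9 haem synthesis enzymes likewise had 0 calls, 8 negative values and a median of -0.26. Alas1, the form of the first enzyme used outside red cells, was the positive one, at 0.39 ± 0.13 (SE, edgeR adjusted p = 0.120).

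**Figure D3:**
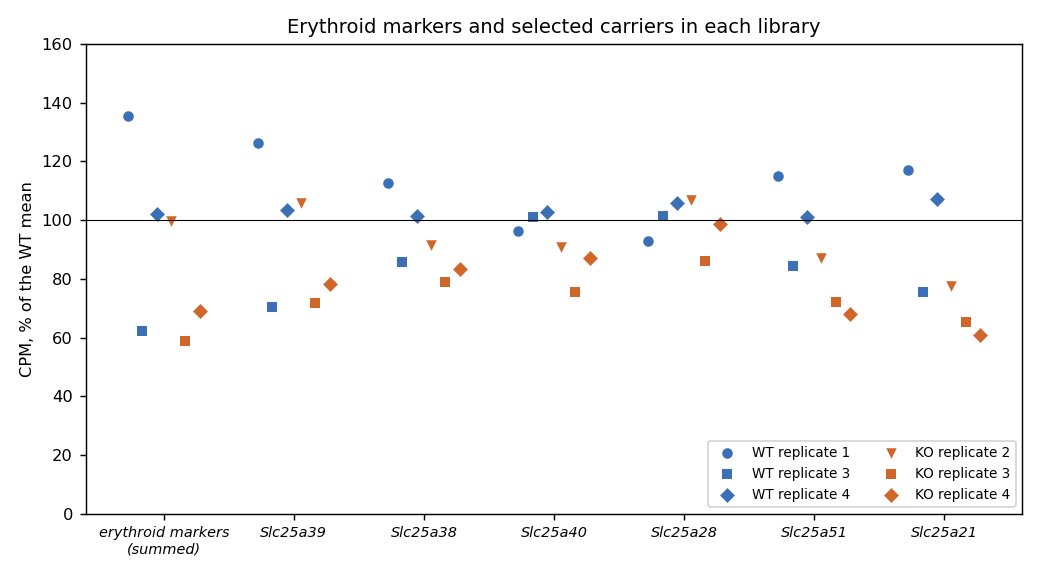
CPM in each library as a percentage of the WT mean, for the summed erythroid markers and 6 carriers, with WT in blue and KO in orange. Slc25a39 and the marker sum are highest in WT replicate 1 and low in WT replicate 3 and KO replicate 3, while Slc25a28 shows no such order.

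Carriers of adenine nucleotides and phosphate, which link the cytosolic ATP pool to oxidative phosphorylation, had 6 of 9 members tested, 0 calls and a median of 0.11. Slc25a5 (ENSMUSG00000016319, chromosome X, 36795651 to 36798807) had 342, 301 and 310 CPM in WT and 329, 357 and 413 CPM in KO. KO replicate 4 was highest, KO replicate 2 lay inside the WT range, and the log2 fold change was 0.21 ± 0.11 (SE, edgeR adjusted p = 0.293). Slc25a4, the ADP/ATP exchanger of muscle and heart, had 49.4, 41.5 and 43.3 CPM in WT and 45.1, 49.7 and 54.9 CPM in KO. Slc25a4 had a value of 0.16. Skeletal muscle markers summed to 10.4 to 22.1 CPM, with a median of -1.05 over 7 tested genes. Their part in the value of Slc25a4 was not tested.

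Slc25a3 had between 295 and 314 CPM in WT and between 300 and 344 CPM in KO, a difference of 0.06 ± 0.10 (SE). Among the ATP-magnesium/phosphate carriers, which adjust the matrix nucleotide pool, the values pointed both ways. Slc25a24 had 128, 140 and 127 CPM in WT and 145, 146 and 157 CPM in KO, without overlap (0.18 ± 0.09, edgeR adjusted p = 0.231). Slc25a25 had 20.0, 17.99 and 18.8 CPM in WT and 15.7, 15.2 and 16.8 CPM in KO, again without overlap (-0.25 ± 0.10, edgeR adjusted p = 0.166). Slc25a23 had 8.10, 6.33 and 7.28 CPM in WT and 6.62, 4.67 and 4.59 CPM in KO (-0.45 ± 0.19, edgeR adjusted p = 0.184). Slc25a25 and Slc25a23 were thus lower on average and Slc25a24 higher, and none of these differences passed over all genes.

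Carriers of di- and tricarboxylates had 4 of 4 members tested, 0 calls and a median of 0.09, and included the lowest value of the family. Slc25a11 (ENSMUSG00000014606, chromosome 11, 70644196 to 70647479), part of the malate-aspartate shuttle, had 73.8, 80.0 and 77.0 CPM in WT and 91.7, 88.2 and 106 CPM in KO. Every KO library was above every WT library, KO replicate 4 most. The log2 fold change of 0.31 ± 0.09 (SE; 95% interval 0.10 to 0.51) did not pass in edgeR (adjusted p = 0.0957), whereas DESeq2 gave 0.32 and a call (adjusted p = 0.0474). Its exons overlap Rnf167 on the opposite strand over 8.92% of their bases, and whether the counting used strand is not stated in the labels.

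Slc25a21 (ENSMUSG00000035472, chromosome 12, 56712634 to 57197472) carries oxoadipate from lysine and tryptophan breakdown. It had 30.6, 19.7 and 28.1 CPM in WT and 20.3, 17.0 and 15.9 CPM in KO. WT replicate 3 lay within the KO range, while the other WT libraries were above it. On the log2 scale KO minus WT was -0.56 ± 0.17 (SE, edgeR adjusted p = 0.0982), the 95% interval reaching from -0.93 to -0.18. It passed in DESeq2 (-0.55, adjusted p = 0.0247), with no filter on low counts (-0.56, adjusted p = 0.00666) and without WT replicate 3 (-0.73, adjusted p = 0.0474), in the last 2 with edgeR. Its WT libraries followed the order of the erythroid marker sum, and its KO libraries did not. Among KO libraries Slc25a21 was lowest in replicate 4 and the marker sum in replicate 3. The relation was not tested further. Slc25a1, which exports citrate for lipid synthesis, and Slc25a10, the dicarboxylate carrier, had values of 0.01 ± 0.09 and 0.17 ± 0.10 (SE).

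Carriers of amino acids and carnitine had 8 of 9 members tested, 0 calls and a median of 0.01. Slc25a44, which imports branched-chain amino acids, had 49.9, 52.1 and 47.2 CPM in WT and 42.3, 44.9 and 39.4 CPM in KO. All KO libraries were below all WT libraries, and the value was -0.24 ± 0.09 (SE, edgeR adjusted p = 0.139). The aspartate/glutamate carriers, which complete the malate-aspartate shuttle with Slc25a11, had 0.03 ± 0.09 for Slc25a12 and 0.22 ± 0.13 for Slc25a13. Slc25a12 was the more abundant, at 10.96 against 5.03 CPM per kb. Slc25a20, the carnitine-acylcarnitine carrier that lets fatty acids into mitochondria, lay between 31.1 and 41.6 CPM in WT and between 31.8 and 45.0 CPM in KO (0.12 ± 0.15, SE). The remaining 4, Slc25a15 (ornithine), Slc25a22 and Slc25a18 (glutamate) and Slc25a29 (basic amino acids), had values between -0.26 and 0.20, with adjusted p of 0.482 or more.

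Carriers of cofactors and pyrimidine nucleotides had all 9 members tested, 0 calls, 6 negative values and a median of -0.04. Slc25a51 (ENSMUSG00000045973, chromosome 4, 45395923 to 45408766) had 314, 230 and 276 CPM in WT and 238, 197 and 186 CPM in KO. Only WT replicate 3 reached into the KO range, and the erythroid marker sum was also lowest in that WT library. On the log2 scale the difference was -0.40 ± 0.14 (SE, edgeR adjusted p = 0.122), the 95% interval reaching from -0.71 to -0.10. It passed in DESeq2 (-0.39, adjusted p = 0.0473) and in edgeR with no filter on low counts (-0.41, adjusted p = 0.0234), and did not without any 1 library.

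Slc25a16, a candidate coenzyme A carrier, had 27.1, 30.1 and 28.6 CPM in WT and 24.5, 23.8 and 25.6 CPM in KO, without overlap (-0.22 ± 0.09, SE, edgeR adjusted p = 0.180). Slc25a42, which imports coenzyme A, had a value of -0.40 ± 0.19 (edgeR adjusted p = 0.231), with overlap. Slc25a36, a pyrimidine nucleotide carrier, had 54.4, 60.6 and 53.3 CPM in WT and 51.9, 51.3 and 48.8 CPM in KO, without overlap (-0.15 ± 0.08, edgeR adjusted p = 0.312). Its paralog Slc25a33 was less abundant, at 2.10 against 5.56 CPM per kb, and had a value of 0.08 ± 0.19. Slc25a17, Slc25a26 (S-adenosylmethionine) and Slc25a32 (folate and FAD) had values between -0.04 and 0.12.

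The 3 relatives of uncoupling proteins, Slc25a14, Slc25a27 and Slc25a30, were all scarce, at 1.70, 0.809 and 2.80 CPM per kb, and had values of 0.22, 0.06 and -0.28. The uncoupling protein gene Ucp2, outside the symbol rule, was not scarce. It had 1294, 1136 and 1338 CPM in WT and 1300, 1021 and 1011 CPM in KO. Of the less characterised members, 6 of 8 were tested with 0 calls. Slc25a45 had 46.5, 56.4 and 46.5 CPM in WT and 55.9, 60.1 and 58.4 CPM in KO, overlapping through WT replicate 3 (0.22 ± 0.10, SE, edgeR adjusted p = 0.197). Slc25a46, which acts in the outer membrane in mitochondrial shape, had 0.05 ± 0.08. Slc25a35, Slc25a43, Slc25a47 and Slc25a53 were each below 1 CPM per kb. Slc25a35 shares 31.3% of its exon bases with Rangrf on the opposite strand, so its reads cannot be assigned to it with confidence.

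Carriers with a miR-181a/b seed match were next set beside those without. Of the 39 tested carriers with an annotated 3′ UTR 6 held an 8mer or 7mer, or 15.4%, against 23.1% of 13700 genes tested. Their 3′ UTRs were long, with a median of 3702 bases against 1189 bases over the tested carriers. The 6 genes whose windows are printed above had 2 positive and 4 negative values and a median of -0.09, against 0.05 for carriers without a match. Over all genes tested the medians were -0.05 with a match and 0.02 without. Slc25a36, with 3 matches including an 8mer, had -0.15, and Slc25a12, with 2 matches including an 8mer, had 0.03. Slc25a32, with 4 matches, had -0.04, and Slc25a53, with 1, had 0.06. Slc25a51 and Slc25a25, with 1 match each, had -0.40 and -0.25, the lowest values of the 6. In none of the 6 did a higher level in KO pass the test.

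Other mitochondrial gene groups were measured for comparison. The 21 tested genes for other mitochondrial transporters and carrier-like proteins, which include the outer membrane proteins Mtch1 and Mtch2, had 0 calls and a median of -0.06. Among them Slc25a37, the mitoferrin left out by the rule, had 1216, 946 and 1112 CPM in WT and 847, 847 and 722 CPM in KO, without overlap (-0.44 ± 0.12, SE, edgeR adjusted p = 0.0857). Abcb10, an erythroid transporter of haem synthesis, had -0.43 ± 0.11 (edgeR adjusted p = 0.0757), and Mtch1 0.28 ± 0.08 (edgeR adjusted p = 0.0789).

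The carrier import machinery, from the outer-membrane entry complex (Tomm genes) to insertion into the inner membrane, had 16 of 16 members tested and 0 calls. Its values were positive in 14, with a median of 0.26, and Timm10b, a small chaperone of the intermembrane space, came nearest (0.47 ± 0.11, SE, edgeR adjusted p = 0.0522). The 5 outer-membrane channel genes had a median of 0.16 and 0 calls. Nuclear-encoded subunits of the respiratory chain and ATP synthase had 78 tested members, 76 of them positive, and a median of 0.30. Only Ndufb11 and Ndufa1, subunits of complex I, rose (edgeR adjusted p = 0.0438 and 0.0491). Both lost the call without WT replicate 1, 3 or 4 or KO replicate 2 or 4. They also lost it with Xist as a covariate (adjusted p = 0.0745 and 0.0787), with library totals only (0.0518 and 0.0611) and with length and GC trends taken out (0.0640 and 0.0629). The list then had 0 calls in edgeR with the Xist covariate and with library totals. DESeq2 called 27 higher (857 of 13007 over all genes), limma 11 (351 of 16956) and edgeR without KO replicate 3 14 (316 of 17468). In the main edgeR fit 55 of the 78 were higher and 0 lower at an unadjusted p under 0.05. Over all genes 23.9% reached that p in either direction.

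The carriers' median of 0.02 was thus below those of the import machinery and the respiratory chain, a difference between lists for which no test was run. Their transcripts also differed in length, with median exon lengths of 3867 bases for carriers, 2411 for the import machinery and 1697 for the respiratory chain, against 3781 over all genes tested. With exon length and GC content trends taken out library by library, the medians were 0.00, 0.16 and 0.21. Of 18 neutrophil markers 5 rose (median 0.54), of 20 immediate early genes 13 fell (median -1.12), and of 15 B cell markers 0 passed (median -0.79). Their part in the carriers' values was not tested.

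**Figure D4:**
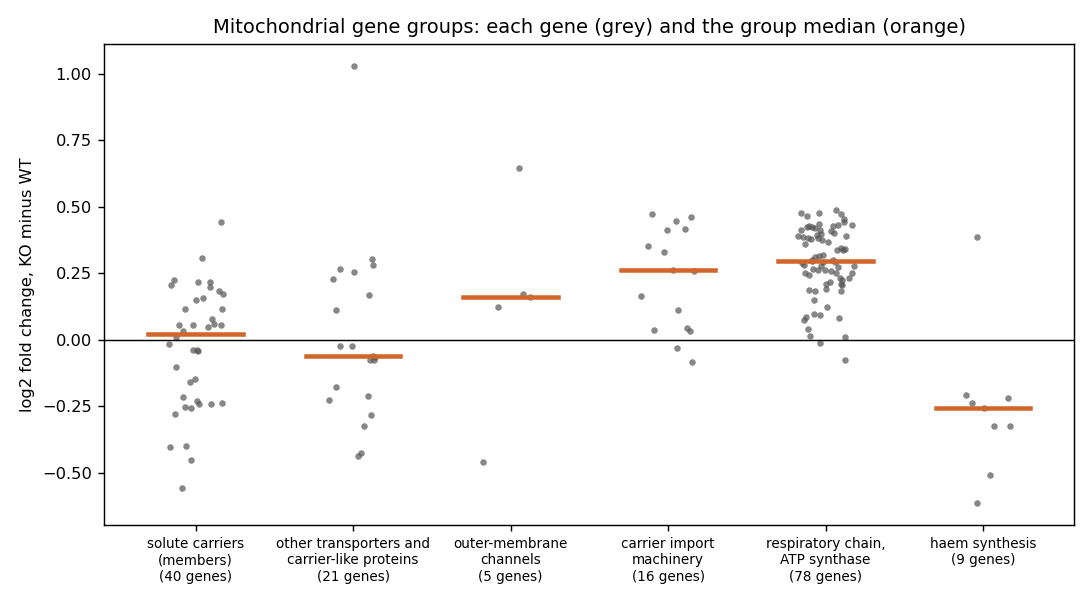
Log2 fold change, KO minus WT, of each tested gene (grey) in 6 mitochondrial groups, with the group median in orange. The carriers spread around their median of 0.02, while 76 of 78 respiratory chain genes lie above 0 and 8 of 9 haem synthesis genes below it.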

How the data were processed

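The deposited table holds raw read counts per gene for 6 poly(A)-selected mouse bone marrow libraries, 3 WT and 3 KO. The submitters' processing notes name Subread 1.5.2 (featureCounts), STAR 2.5.2b, Trimmomatic 0.36 and the build GRCm38, without order, settings, strand or annotation release. Groups follow the sample titles.

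Identifiers were matched to GENCODE M21 (GRCm38), giving 49056 of 49315 a symbol. The counts were tested with edgeR 4.0.16 (R 4.3.3) by its two-sided robust quasi-likelihood test after filterByExpr on the groups and TMM scaling, adjusted over all 16956 genes. CPM are counts over library total times TMM factor. The SE is the fold change over the root of F. Single values of 1 carrier and 2 markers are not reported here, though counts, sums and medians include them. The other carriers are named, in full where the unadjusted p was under 0.05, the groups did not overlap, the level was among the 6 highest or the role was erythroid. The procedure was run on simulated counts with known changes. These held no difference in cell mix or Xist between libraries, so they do not test its behaviour under such differences. Members, lists and alternatives were chosen with earlier results of these data known. Alternatives were DESeq2 1.42.0, limma 3.58.1 with quality weights, DESeq2 size factors, library totals, 2 other filters, abundant genes left out, an Xist covariate, a length and GC correction, the replicate block and each library left out. The replicate block takes its difference between KO and WT from replicates 3 and 4 alone.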

Additional observations from a re-analysis of the deposited data

How the results depend on the processing

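Of the tested carriers, 0 were called higher or lower in edgeR, and this held under DESeq2 size factors, library totals only, a minimum mean log2 CPM of 1, the replicate block, the Xist covariate, the length and GC correction, limma and abundant genes left out. DESeq2 called 1 higher and 2 lower, or 7.89% of 38, against 12.6% of all genes. No filter on low counts gave 2 lower of 45 carriers, against 839 lower of 30403 genes. Leaving out 1 library gave 0 higher throughout and 0 to 1 lower, the call being Slc25a21 without WT replicate 3. That was 1 of 40 carriers, against 143 lower of 17151 genes in the same fit. The number of carriers above 10 CPM per kb was 13, and 19 with coding transcript length.

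Of the 4 smaller comparison lists together, 0 genes were called in either direction. There were 4 higher and 3 lower with no filter on low counts, 6 and 4 with DESeq2, and 1 higher with the replicate block, with abundant genes left out and with limma. Leaving out 1 library gave 0 to 2 higher and 0 to 1 lower. Respiratory chain genes called higher numbered 2, but 0 with library totals only, 31 with no filter on low counts, 8 with the replicate block, 0 with the Xist covariate, 27 with DESeq2, 11 with limma and 0 to 14 with 1 library left out. The cause of these differences was not tested.

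Of 39 tested carriers, 14 changed sign in at least 1 alternative, in 36 fits in all, and none of these was called. With library totals only the log2 fold change was -0.0411 for Slc25a12, -0.0119 for Slc25a53, -0.0183 for Slc25a3, -0.0643 for Slc25a1, -0.0153 for Slc25a27 and -0.0250 for Slc25a46. With the replicate block the log2 fold change was -0.0199 for Slc25a53, -0.112 for Slc25a33, 0.00961 for Slc25a15, 0.141 for Slc25a32 and -0.113 for Slc25a27. With the length and GC correction the log2 fold change was -0.0110 for Slc25a33, 0.0119 for Slc25a15 and -0.0635 for Slc25a1. With the Xist covariate the log2 fold change was -0.00128 for Slc25a12 and 0.0180 for Slc25a28. With a minimum mean log2 CPM of 1 the log2 fold change was -0.00888 for Slc25a1. With each library left out in turn it ran from -0.00174 to 0.111 for Slc25a12, -0.0353 to 0.141 for Slc25a53, -0.0545 to 0.154 for Slc25a33, -0.0255 to 0.270 for Slc25a26, -0.00659 to 0.102 for Slc25a3, -0.0633 to 0.0492 for Slc25a15, -0.000819 to 0.245 for Slc25a20, -0.316 to 0.0361 for Slc25a35, -0.0827 to 0.321 for Slc25a47, -0.134 to 0.0550 for Slc25a32, -0.0278 to 0.0739 for Slc25a1, -0.0516 to 0.133 for Slc25a27 and -0.109 to 0.0494 for Slc25a28.

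Over all genes 159 were called higher and 258 lower. The counts were 87 and 403 with library totals only, 653 and 839 with no filter on low counts, 76 and 133 with the Xist covariate, 857 and 784 with DESeq2 and 351 and 435 with limma, and with each library left out from 6 to 316 higher and from 23 to 604 lower. Replicate numbers 3 and 4 occur in both groups. The deviations of same-numbered libraries from their group means correlated at 0.274 for replicate 3 and -0.233 for replicate 4. Pairs with different numbers ran from -0.276 to 0.244. With so few libraries these correlations cannot decide whether same-numbered libraries were paired or shared a batch. The replicate block changed no call among the carriers, but its difference between KO and WT rests on replicates 3 and 4 alone. Replicates 1 and 2 each occur in a single group and add nothing to it.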
